A study of Mus musculus with 4 samples.

Results

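The cytosolic and mitochondrial chaperones are the proteins that fold new and damaged polypeptides outside the endoplasmic reticulum, together with their helpers and the factors that switch their genes on. The members were 41 genes listed by function, and each was represented by the probe set annotated to its symbol alone that was brightest over all 4 arrays. Of the 41 genes, 39 had such a probe set, out of 18193 genes so represented on the array, and 38 passed the filter on dim probe sets, out of 12832 genes tested. Hspa1a did not pass the filter, and Hsp90ab1 and Hsf1 were not analysed here.

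Long-term haematopoietic stem cells (LT-HSC) were compared with their short-term counterparts (ST-HSC), the neighbouring stage whose blood reconstitution is shorter lived, on 2 Affymetrix expression arrays each. Both fractions were sorted from mouse bone marrow as lineage-negative, cKit+, Sca1+ and CD135- cells, LT-HSC as CD34- and ST-HSC as CD34+. Every mouse was a control on a C57BL/6 background that lacked the interferon-inducible Mx-Cre transgene, and each animal was given poly(I:C), a double-stranded RNA mimic that raises interferon, 7 times on alternate days. Both LT-HSC replicates (1 and 2) and replicate 2 of ST-HSC were taken from mice 7.5 weeks old, 4 weeks after the last dose, whereas ST-HSC replicate 3 was taken from mice 8.5 weeks old, 3 weeks after it. Both ST-HSC samples carry LT-HSC in their tissue entry although the gate given there is CD34+, so grouping followed their titles. The labels do not say whether replicates of a group are separate animals or pools, so p-values measure only the spread between these samples, which may be technical. In bulk RNA, fewer cells of a type and less RNA per cell cannot be told apart.

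Cd34 separated the groups as gated, with intensities of 18.3 and 23.5 on the LT-HSC arrays, against 841 and 1142 on the ST-HSC arrays. The genes of the other gate markers also read lower in LT-HSC, although both fractions were gated alike for them. Kit read 397 and 382 on the LT-HSC arrays, against 684 and 907 on the ST-HSC arrays, and fell (-1.02, limma adjusted p = 0.0498). Flt3, which encodes CD135, read 62.3 and 53.4 on the LT-HSC arrays, against 258 and 134 on the ST-HSC arrays, and did not pass (-1.37, adjusted p = 0.0631). The Sca1 gene was not analysed here. The 5 tested stem cell genes (Hlf, Procr, Mecom, Slamf1 and Meis1) read 201 or higher on every array, and in limma 0 of them passed, at an adjusted or an unadjusted p under 0.05. Other marker lists moved with the groups. All 10 tested plasma cell genes rose in LT-HSC, with summed intensities of 69523 and 70518 on the LT-HSC arrays, against 1781 and 3225 on the ST-HSC arrays. Of 7 tested B cell genes 4 rose, with sums of 4698 and 5289 on the LT-HSC arrays, against 312 and 553 on the ST-HSC arrays. Of 19 tested genes of G2 and mitosis 18 fell in LT-HSC, with sums of 2991 and 4542 on the LT-HSC arrays, against 11948 and 17235 on the ST-HSC arrays, and of 16 immediate early genes 6 rose, with sums of 44644 and 42990 on the LT-HSC arrays, against 25046 and 5013 on the ST-HSC arrays. Of 7 tested granulocyte genes 0 passed in limma and 2 had an unadjusted p under 0.05 (4251 of all 12832 genes tested did). The granulocyte list summed to 3818 and 501 on the LT-HSC arrays, against 3433 and 47779 on the ST-HSC arrays, the last on replicate 3. Of the other lists, T and NK cells had 2 genes higher and 1 lower of 5 tested, macrophages 1 higher of 7, erythroid cells 1 lower of 5, mast cells 1 higher and 1 lower of 5, and megakaryocytes 1 higher and 2 lower of 7. ST-HSC replicate 3 also stood apart in its control probe sets. The 3′ probe set of beta-actin over the 5′ one read 18.4 and 19.6 on the LT-HSC arrays, against 19.5 and 6.65 on the ST-HSC arrays, and the same ratio for Gapdh read 14.8 and 15.7 on the LT-HSC arrays, against 13.9 and 6.59 on the ST-HSC arrays. The part of these differences in the chaperone results was not tested.

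Chaperones bind exposed hydrophobic stretches of unfolded proteins, and many of them release these in cycles of ATP hydrolysis. In the cytosol Hsp70 proteins take up new chains with the help of J proteins, Hsp90 matures kinases and receptors, and actin and tubulin are passed by prefoldin to the CCT ring, a barrel of different subunits. Mitochondria have their own Hsp70, Hsp60 with its lid Hsp10, and the Hsp90 relative TRAP1. Some of these genes are expressed at all times, and others are induced by heat shock factors, which bind repeats of the heat shock element in promoters when unfolded proteins accumulate. Blood stem cells are known for a low rate of protein synthesis.

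The promoter of Hspd1 and Hspe1 and 5 further stretches are shown for their matches to the heat shock element and for how they relate to each other: Hspd1 and Hspe1, which both fell, share 1 promoter, and Hspa1a and Hspa1b are near-copies. Sequences are from RefSeq, build GRCm38.p6, in windows of 250 bases before to 50 after a gene's start. Windows on a single chromosome were left out for the members but kept for all genes. Of the 41 members 32 were matched to a window that was kept, and the called Hsp90aa1 was not. Capitals mark every match to a pair of units, GAANNTTC or TTCNNGAA, each of which reads the same on the opposite strand, and adjoining capitals are overlapping matches.
Hspd1 and Hspe1, the 215 bases between their starts, read on the plus strand towards Hspe1 at chr1:55087933-55088147: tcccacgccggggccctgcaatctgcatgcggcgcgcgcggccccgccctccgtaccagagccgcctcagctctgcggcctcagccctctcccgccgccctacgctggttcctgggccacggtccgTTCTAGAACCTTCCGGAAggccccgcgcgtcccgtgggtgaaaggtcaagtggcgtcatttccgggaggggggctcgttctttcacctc
Hspb1, the 250 bases before the start, plus strand at chr5:135887669-135887918: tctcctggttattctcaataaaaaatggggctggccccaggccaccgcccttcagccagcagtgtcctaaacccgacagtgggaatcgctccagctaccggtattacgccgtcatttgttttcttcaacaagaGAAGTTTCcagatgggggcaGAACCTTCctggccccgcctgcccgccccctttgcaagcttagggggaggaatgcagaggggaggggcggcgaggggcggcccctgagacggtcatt
Hsph1, from 80 bases before to 30 after the start, minus strand at chr5:149636286-149636395: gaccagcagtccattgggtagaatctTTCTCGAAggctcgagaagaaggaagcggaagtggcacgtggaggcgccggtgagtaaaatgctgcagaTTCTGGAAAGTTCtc
Chordc1, from 80 bases before to 30 after the start, plus strand at chr9:18292187-18292296: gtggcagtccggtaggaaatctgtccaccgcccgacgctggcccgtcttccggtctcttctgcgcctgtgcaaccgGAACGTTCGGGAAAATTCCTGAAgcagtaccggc
Hspa1a, the 250 bases before the start, minus strand at chr17:34972157-34972406: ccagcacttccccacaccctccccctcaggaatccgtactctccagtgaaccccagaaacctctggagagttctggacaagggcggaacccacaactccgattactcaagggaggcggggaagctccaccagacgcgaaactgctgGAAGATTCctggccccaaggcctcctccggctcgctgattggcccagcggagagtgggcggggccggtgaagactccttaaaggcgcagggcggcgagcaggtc
Hspa1b, the 250 bases before the start, minus strand at chr17:34959239-34959488: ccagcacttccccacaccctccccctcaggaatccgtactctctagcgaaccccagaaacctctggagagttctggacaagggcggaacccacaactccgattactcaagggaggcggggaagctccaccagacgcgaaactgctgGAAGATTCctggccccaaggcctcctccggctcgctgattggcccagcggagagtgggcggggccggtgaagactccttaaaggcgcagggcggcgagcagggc

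A pair of units was found in 15 of the 32 matched members, against 17% of all 27025 genes with a window. A run of 3 units, which is GAANNTTC followed by NN and a further GAA, or the same on the opposite strand, and so holds overlapping pairs, was found in 5 of the 32 members against 0.662% of all genes. These 5 were Hspd1, Hspe1, Hsph1, Chordc1 and the J protein gene Dnajb6. For Hspd1 and Hspe1 it is the same stretch, lying between starts that are 216 bases apart. On the log2 scale (LT-HSC minus ST-HSC), Chordc1 lay at -0.31, Dnajb6 at -0.45, Hspd1 at -0.91 and Hspe1 at -1.0. Hsph1 lay above 0, at 0.49, but was not called, and its other tested probe set lay at -0.19. A match says only that these letters stand in the window.

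Among the tested chaperones, 1 rose in LT-HSC (the small heat shock protein gene Hspb1), 9 fell and 28 did not pass. The 9 were Hsp90aa1, the CCT subunits Tcp1, Cct3, Cct5 and Cct6a, the mitochondrial Hspd1, Hspe1 and Trap1, and the co-chaperone Stip1. Calls are limma's moderated test with Benjamini-Hochberg adjusted p under 0.05 over all 27022 probe sets tested. By the same rule 7.92% of the 12832 genes rose and 6.41% fell (14.3% in either direction). The median difference of the 38 chaperones was -0.60 on the log2 scale, LT-HSC minus ST-HSC, against -0.08 over all genes tested, and 31 of them lay below 0, as did 54.1% of all genes. Both LT-HSC arrays were below both ST-HSC arrays for 26 chaperones (35.7% of all genes) and above them for 4 (28.6% of all genes). Of the chaperones, 28 stood among the 3092 genes above the 90th percentile of intensity, where 8 of them and 8.83% of the genes fell. As deposited, 3 of the 28 and 7.60% of these bright genes fell. With arrays centred on their medians, 0 of the 28 and 4.33% of the bright genes fell.

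**Figure D1:**
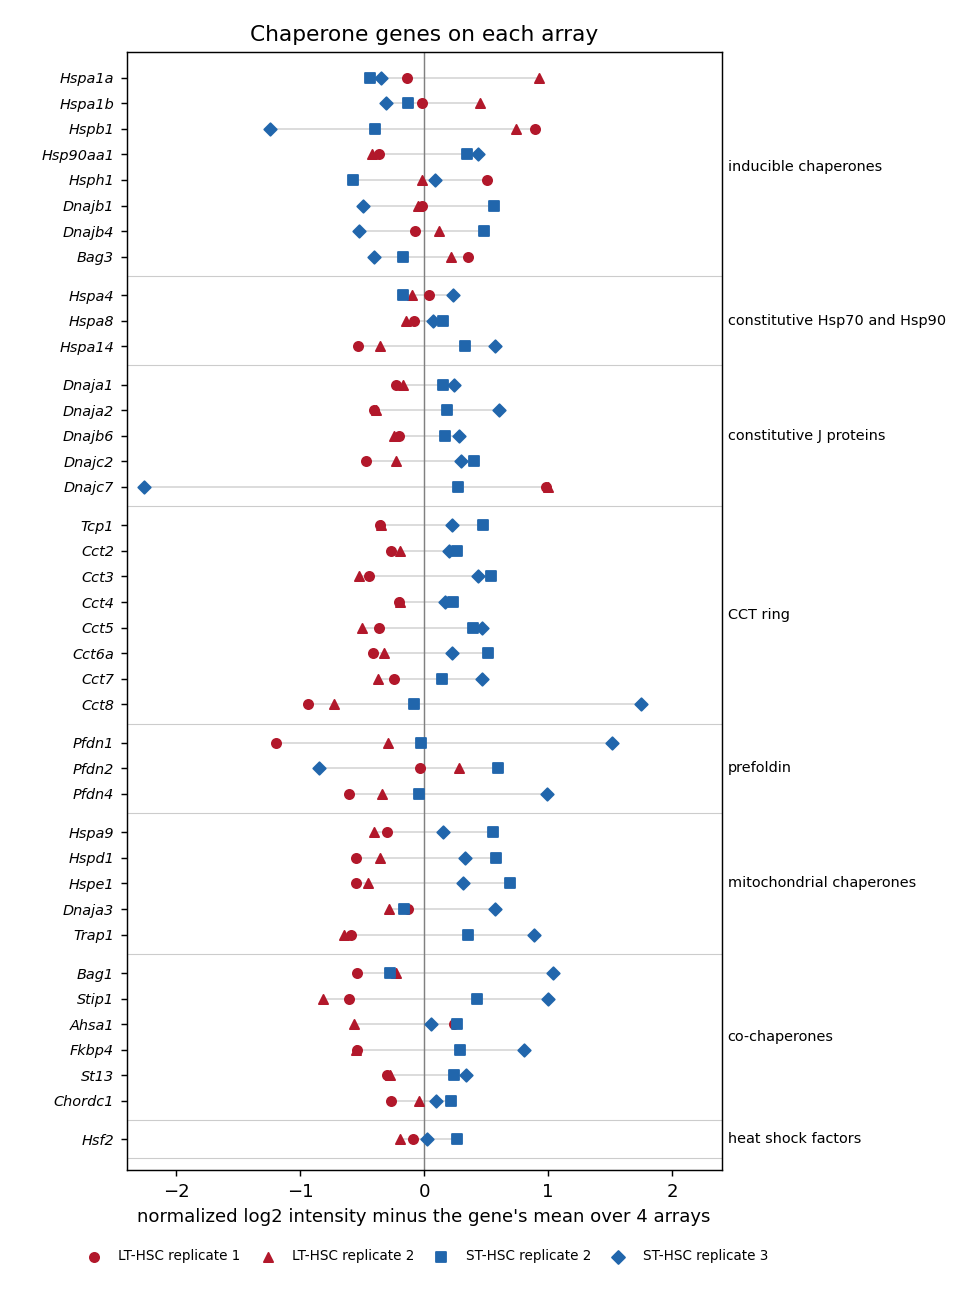
Each row is a chaperone gene and each point 1 array, as the normalized log2 intensity minus that gene's mean over the 4 arrays (x axis). LT-HSC replicates are red (circle, triangle) and ST-HSC replicates blue (square, diamond). In all 8 genes of the CCT ring the red points lie left of the blue ones, as they do in 35.7% of all genes. Hspb1 and Bag3 show the opposite order, as do 28.6% of all genes. ST-HSC replicate 3 lies far out for Dnajc7, Cct8 and Pfdn1.

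The number of calls moved with single arrays and with the scaling. Without LT-HSC replicate 1, and likewise without replicate 2, 0 chaperones rose and 0 fell (1.88% and 1.87% of all genes called), while 5 and 8 had an unadjusted p under 0.05. Without ST-HSC replicate 2, 4 rose and 25 fell, and without ST-HSC replicate 3, 3 rose and 22 fell (37.2% and 27.6% of all genes called), of 39 tested, since Hspa1a then passed the filter. Each of these fits takes its spread from the remaining pair and assumes that the lone array varies alike. With the intensities as deposited 5 fell and 1 (Hspb1) rose. With each array centred on its median Stip1 alone fell, while Hspb1 and Dnajc7 rose. Of the 3092 bright genes, 7.60% fell and 13.6% rose as deposited, and 4.33% fell and 12.4% rose when centred. The members' median was -0.44 and -0.33 under these scalings, and that of the 3092 bright genes moved to 0.02 and 0.13, against -0.07 after quantile normalization, so differences of bright genes are relative to that shift.

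**Figure D2:**
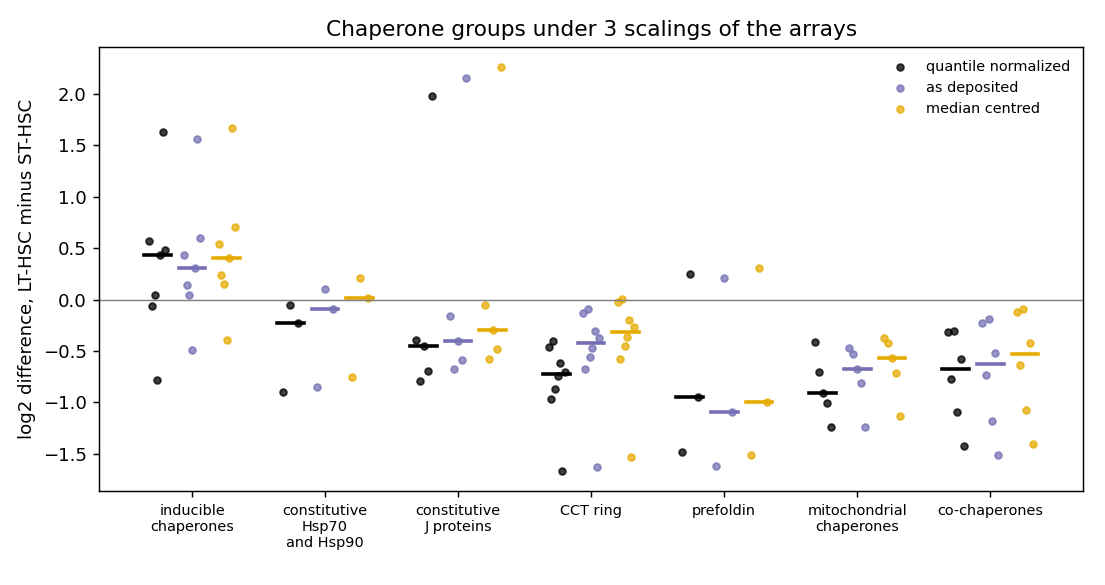
Log2 difference, LT-HSC minus ST-HSC (y axis), of each tested chaperone (points) by role group (x axis), with the group median (bar), after quantile normalization, as deposited and with arrays centred on their medians. The CCT ring median is -0.72, -0.42 and -0.32. The median of the constitutive Hsp70 and Hsp90 group, in which no Hsp90 gene was tested, is -0.22, -0.09 and 0.02.

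The genes listed as heat-inducible chaperones were the group whose members lay mostly above 0. Hspd1, Hspe1, Chordc1 and Dnajb6, whose windows hold a run of 3 units, were listed in other groups and lay below 0. Of 7 tested genes 1 rose, 1 fell and 5 did not pass (14.3% of all genes were called), with a median of 0.44. Leaving out LT-HSC replicate 1 gave a median of 0.22, and leaving out replicate 2 of that group gave 0.20, with 4 of 7 genes above 0. Hspb1 encodes HSP27, a small heat shock protein that holds unfolded proteins without ATP. It read 368 and 336 on the LT-HSC arrays, against 162 and 71.3 on the ST-HSC arrays, so the groups did not overlap, and ST-HSC replicate 3 was the lower of its pair. This made it 3.10-fold higher in LT-HSC, with log2 means of 8.54 ± 0.11 in LT-HSC and 6.90 ± 0.60 in ST-HSC (SD, n = 2 each; difference 1.63, SE 0.37, limma adjusted p = 0.0361). Its 2nd probe set lay at 1.04 and did not pass (adjusted p = 0.0824). The Hspb1 stretch printed above holds 2 separate pairs of units and no run of 3.

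Hsp90aa1, the inducible cytosolic Hsp90, went the other way. It read 3822 and 3510 on the LT-HSC arrays, against 5246 and 5096 on the ST-HSC arrays, with no overlap and little spread within either pair. Its log2 difference was -0.78 (SE 0.14, limma adjusted p = 0.0163), 1.72-fold lower in LT-HSC. Of its 4 tested probe sets 3 lay below 0, 1 passed, and a dim one lay at 0.27. As deposited the difference was -0.50 and did not pass (adjusted p = 0.0851). The constitutive partner Hsp90ab1 was not analysed here.

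The remaining inducible genes were not called. Bag3, which couples Hsp70 to selective autophagy, lay at 0.57 (adjusted p = 0.252), with both LT-HSC arrays above both ST-HSC arrays. Hsph1, the Hsp110 exchange factor of Hsp70, lay at 0.49 (adjusted p = 0.346) with groups that overlapped. Among the fits with 1 array left out it was called only without ST-HSC replicate 3 (0.83, adjusted p = 0.00928), and lay at 0.22 without LT-HSC replicate 1, 0.74 without LT-HSC replicate 2 and 0.16 without ST-HSC replicate 2 (adjusted p = 0.876, 0.449 and 0.586). Dnajb1, the J protein HSP40, lay at -0.07 and Dnajb4 at 0.05. Their other tested probe sets, none of them called, lay at 0.84 for Dnajb1 and at 1.30 and -0.40 for Dnajb4. For Dnajb1 the ST-HSC arrays lay on either side of the LT-HSC pair, with 1761 and 1694 on the LT-HSC arrays, against 2164 and 1134 on the ST-HSC arrays, and it was called higher without ST-HSC replicate 2 (0.46, adjusted p = 0.0124) and lower without replicate 3 (-0.61, adjusted p = 0.00167). The summed immediate early genes read 5013 on ST-HSC replicate 3 and 25046 on replicate 2. Dnajb1, Dnajb4, Bag3, Hspb1 and Hspa1b had the same order, and Hsph1 and Hspa1a the opposite. Hsp90aa1 had the same order as deposited and the opposite after normalization. The part of the immediate early genes in the inducible values was not tested.

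Hspa1a and Hspa1b, which encode the stress-induced Hsp70, are near-identical copies, and whether their probe sets tell them apart was not tested. The 250 bases before their starts differ at 3 positions (98.8% identity), and both hold the same pair of units. Hspa1b read 31.5 and 66.6 on the LT-HSC arrays, against 39.8 and 30.2 on the ST-HSC arrays (difference 0.44, SE 0.32, limma adjusted p = 0.404). Hspa1a read 8.49 and 48.1 on the LT-HSC arrays, against 7.83 and 10.2 on the ST-HSC arrays and was not tested. As deposited the groups overlapped for both genes, and LT-HSC replicate 2 was the highest array for each.

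All 8 subunits of the CCT ring, the barrel that folds actin and tubulin, lay below 0 in LT-HSC, from -1.67 to -0.40 with a median of -0.72, although Cct4 turned to 0.01 with arrays centred on their medians. Of the 8 subunits 4 fell, 0 rose and 4 did not pass (6.41% of all genes fell). Both LT-HSC arrays were below both ST-HSC arrays for all 8, as deposited as well as normalized. After normalization 35.7% of all genes had that order. Cct3 read 2917 and 2629 on the LT-HSC arrays, against 4732 and 4181 on the ST-HSC arrays, a difference of -0.97 (SE 0.15, limma adjusted p = 0.0107), or 1.95-fold lower in LT-HSC. Cct5 read 2319 and 1996 on the LT-HSC arrays, against 3180 and 3177 on the ST-HSC arrays, a difference of -0.87 (SE 0.16, adjusted p = 0.0208). These were the subunits with the smallest adjusted p of the ring, and within each pair the arrays stood close together.

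Tcp1, the founding subunit that encodes CCT alpha, read 2832 and 2718 on the LT-HSC arrays, against 4030 and 3205 on the ST-HSC arrays (difference -0.70, SE 0.16, limma adjusted p = 0.0382). Cct6a read 1988 and 2033 on the LT-HSC arrays, against 3101 and 2517 on the ST-HSC arrays (difference -0.74, SE 0.18, limma adjusted p = 0.0452). In these genes the ST-HSC pair was the wider one, with replicate 2 the higher. Cct2, Cct4 and Cct7 lay at -0.46, -0.40 and -0.62 and missed the threshold with adjusted p-values of 0.0781, 0.0951 and 0.0765. Cct8 had the lowest difference of all 38 chaperones and did not pass. It read 274 and 331 on the LT-HSC arrays, against 509 and 1831 on the ST-HSC arrays (difference -1.67, SE 0.56, limma adjusted p = 0.0976). The high array was ST-HSC replicate 3, the one with the low 3′ over 5′ ratios, and without it the difference was -0.74 (adjusted p = 0.0209), against -2.67 without ST-HSC replicate 2. The part of that ratio in the Cct8 value was not tested.

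With the arrays as deposited the ring's median was -0.42, all 8 subunits stayed below 0 and 1 fell. With arrays centred on their medians 0 fell. All 21 tested probe sets of the ring lay below 0 after quantile normalization and 11 of them fell (12.2% of all tested probe sets were called in either direction). As deposited, 18 had both LT-HSC arrays below both ST-HSC arrays, while 2 dimmer ones of Cct4 had them above. Of 6 tested for Cct4 all lay below 0, from -1.10 to -0.16, and 1 other than the brightest passed. Of 5 tested for Cct3 all lay below 0 and 4 passed, while for Cct2 the 2 dimmer ones passed and the brightest did not. Probe sets of 1 gene were read on the same arrays and are not replicates.

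**Figure D3:**
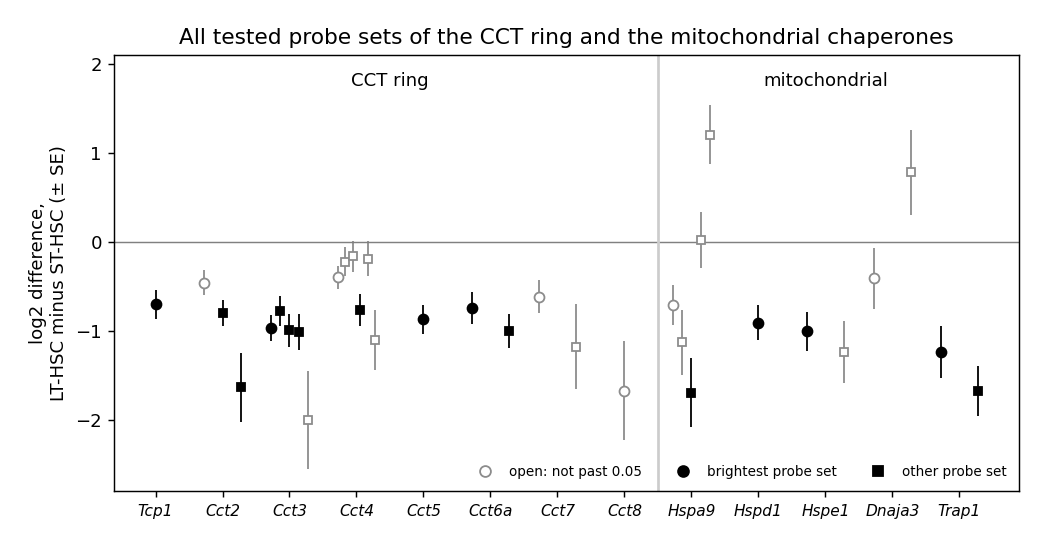
Log2 difference, LT-HSC minus ST-HSC (y axis, ± SE), of every tested probe set of the CCT subunits (left) and the mitochondrial chaperones (right). Circles are the brightest probe set of a gene, squares the others, and filled symbols passed an adjusted p of 0.05. Every probe set of the CCT ring lies below 0, whereas Hspa9 and Dnaja3 have probe sets on both sides.

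Prefoldin, which hands actin and tubulin to the ring, gave no calls: in limma 0 of its 3 tested subunits rose and 0 fell. Of the 3, 1 had an unadjusted p under 0.05, as had 4251 of all 12832 genes tested. Pfdn1 read 13.3 and 52.7 on the LT-HSC arrays, against 69.4 and 205 on the ST-HSC arrays, a difference of -1.48 (SE 0.57, limma adjusted p = 0.134). The groups did not overlap, but the arrays of each pair stood far apart. Without ST-HSC replicate 3 the difference was -0.73, and without ST-HSC replicate 2 it was -2.25 and called. Pfdn4 lay at -0.95, again without overlap, and at -0.43 and -1.50 in the same fits, called in the second, and Pfdn2 at 0.25 with overlapping groups.

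Among the 5 mitochondrial chaperones 3 fell, 2 did not pass and 0 rose (6.41% of all genes fell). Their median was -0.91, and it was -0.67 as deposited and -0.57 with arrays centred on their medians. The calls changed with the scaling: as deposited 2 fell (Hspe1 and Trap1), and with arrays centred on their medians 0 fell. Hspe1 encodes Hsp10, the lid of the Hsp60 barrel. It read 1053 and 1096 on the LT-HSC arrays, against 2096 and 1724 on the ST-HSC arrays, a difference of -1.0 (SE 0.22, limma adjusted p = 0.0321), or 2.0-fold lower in LT-HSC. Hspd1, which encodes Hsp60, read 1348 and 1509 on the LT-HSC arrays, against 2458 and 2125 on the ST-HSC arrays, a difference of -0.91 (SE 0.20, limma adjusted p = 0.032). The 2 genes that face each other across the shared promoter printed above had differences within 1 SE of each other, and in both ST-HSC replicate 2 was the highest array.

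Trap1, the mitochondrial Hsp90 relative, had the lowest difference of the mitochondrial group. It read 268 and 267 on the LT-HSC arrays, against 526 and 809 on the ST-HSC arrays, with ST-HSC replicate 3 the highest array. The difference was -1.24 (SE 0.30, limma adjusted p = 0.0419), or 2.36-fold lower in LT-HSC, and its 2nd probe set fell as well (-1.67, adjusted p = 0.0151). Hspa9, the mitochondrial Hsp70 mortalin, lay at -0.71 and did not pass (adjusted p = 0.0903), although 1 of its 5 tested probe sets fell (-1.69, adjusted p = 0.0374). Its probe sets reached 1.20 at the other end. Dnaja3, the J protein partner of Hspa9, lay at -0.41 with an adjusted p of 0.451, at -0.04 without ST-HSC replicate 3 and, called, at -0.81 without ST-HSC replicate 2.

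**Figure D4:**
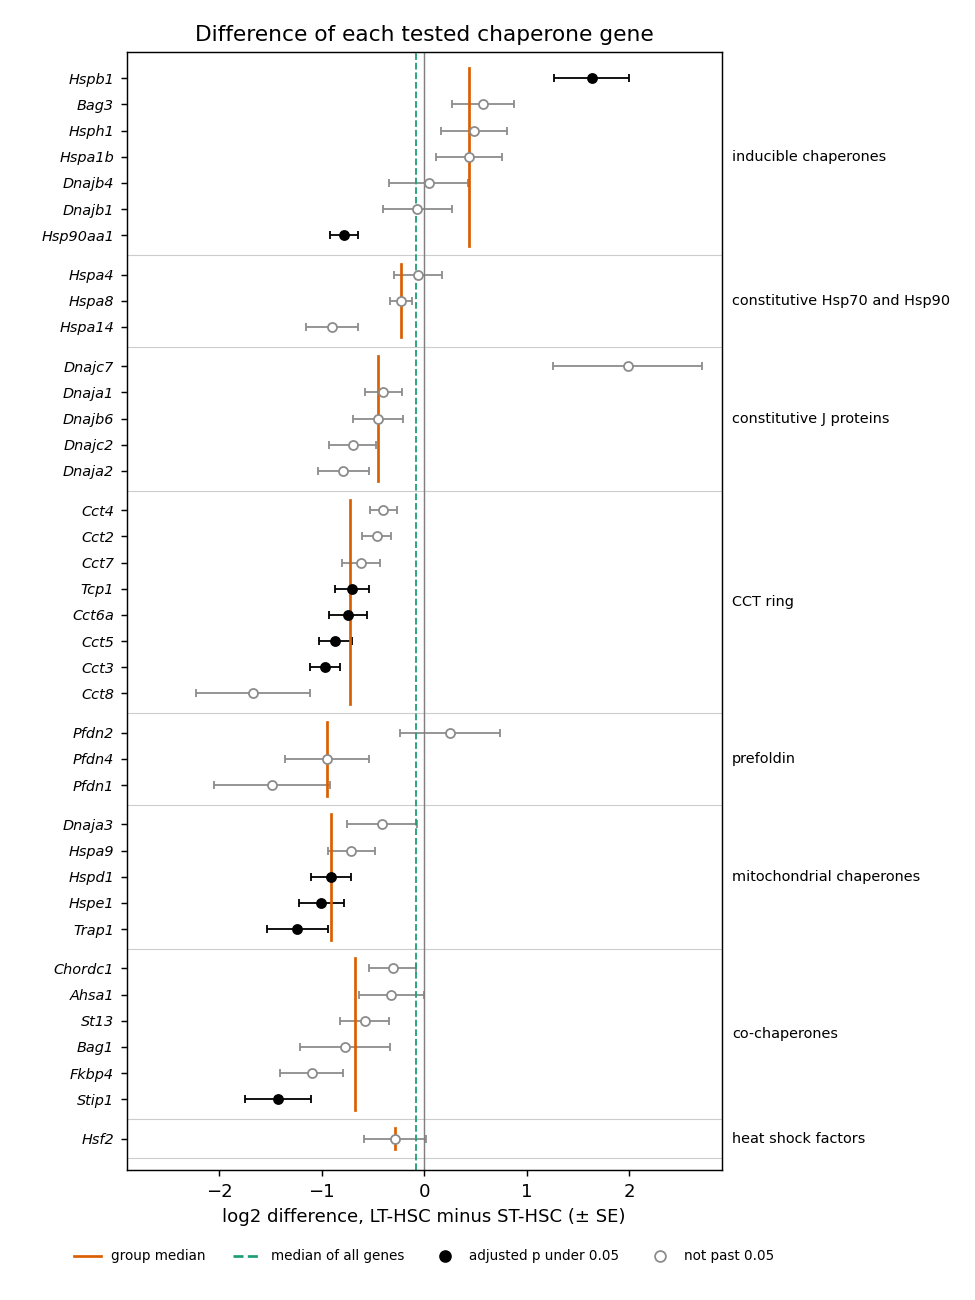
Log2 difference, LT-HSC minus ST-HSC, with its SE (x axis) for the 38 tested chaperones, ordered by role group and then by difference. Filled points passed a limma adjusted p of 0.05, orange bars are group medians and the dashed line is the median of all genes, -0.08. Group medians run from -0.95 for prefoldin to 0.44 for the inducible chaperones, and the inducible median is 0.22 and 0.20 when LT-HSC replicate 1 and replicate 2 are left out in turn.

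None of the constitutive Hsp70 genes or constitutive J proteins passed: of 3 and 5 tested, 0 rose and 0 fell in limma, and 1 and 3 had an unadjusted p under 0.05. An unadjusted p that low was found for 4251 of all 12832 genes tested. Hspa8 encodes Hsc70, the housekeeping Hsp70. Its brightest probe set read 7379 and 7193 on the LT-HSC arrays, against 8519 and 7037 on the ST-HSC arrays, overlapping as deposited, with a difference of -0.22 (SE 0.11, limma adjusted p = 0.222) that turned to 0.02 with arrays centred on their medians. Yet 2 dimmer probe sets of Hspa8 fell, by 1.56 (adjusted p = 0.0172) and 1.13 (adjusted p = 0.0468). Hspa14, an Hsp70 bound to ribosomes, read 400.2 and 465 on the LT-HSC arrays, against 707 and 888 on the ST-HSC arrays without overlap (difference -0.90, SE 0.25, limma adjusted p = 0.0646), and its 2nd probe set fell (-1.27, adjusted p = 0.0394). Hspa4, an exchange factor of the Hsp110 type, lay at -0.06 and above 0 as deposited (0.11) and with arrays centred on their medians (0.21).

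Dnaja2, a J protein that delivers clients to Hsc70, read 676 and 666 on the LT-HSC arrays, against 919 and 1279 on the ST-HSC arrays (difference -0.79, SE 0.25, limma adjusted p = 0.0842). Its 4 tested probe sets were split, 2 below 0 and 2 above. Dnaja1, Dnajb6 and Dnajc2, the J protein of the ribosome exit, lay at -0.40, -0.45 and -0.70, with both LT-HSC arrays below both ST-HSC arrays. Dnajc7, which moves clients between Hsp70 and Hsp90, had the highest difference of all 38 chaperones. It read 1662 and 1653 on the LT-HSC arrays, against 859 and 145 on the ST-HSC arrays (difference 1.98, SE 0.72, limma adjusted p = 0.121). ST-HSC replicate 3 was the lowest array. Without it the difference was 0.73 (adjusted p = 0.00102), and without ST-HSC replicate 2 it was 3.35 (adjusted p = 1.11e-08).

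All 6 co-chaperones lay below 0 and 1 fell (54.1% and 6.41% of all genes), with a median of -0.68. Stip1 encodes HOP, which bridges Hsp70 and Hsp90. It read 153 and 147 on the LT-HSC arrays, against 376 and 558 on the ST-HSC arrays, without overlap. The difference was -1.42 (SE 0.32, limma adjusted p = 0.0361), or 2.68-fold lower in LT-HSC, and Stip1 was called under each of the 3 scalings. Fkbp4, an immunophilin of steroid receptor complexes, lay at -1.10 (adjusted p = 0.0627) and passed as deposited (-1.18, adjusted p = 0.0464). Bag1, an exchange factor of Hsp70, lay at -0.77 with overlapping groups. Bag1 was at -0.11 without ST-HSC replicate 3 (adjusted p = 0.747) and at -1.47 without ST-HSC replicate 2, where it was called (adjusted p = 7.31e-05). St13, Ahsa1 and Chordc1, helpers of Hsp70 and Hsp90, lay at -0.58, -0.32 and -0.31. Hsf2, the heat shock factor that was tested, read 15.7 and 21.2 on the LT-HSC arrays, against 34.6 and 24.9 on the ST-HSC arrays (difference -0.29, SE 0.30, limma adjusted p = 0.563).

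Other genes of the chaperone network were counted from 3 further lists, to be read beside the 14.3% of all genes called in either direction. Of 32 tested cytosolic chaperones and co-chaperones outside the members 2 rose, 3 fell and 27 did not pass, with a median of -0.39. Uri1, a prefoldin-like protein, rose by 3.23 (SE 0.21, limma adjusted p = 0.00049), at 4078 and 4450 on the LT-HSC arrays, against 421 and 361 on the ST-HSC arrays. Fkbp5, an immunophilin induced by glucocorticoids, fell by 1.56 (adjusted p = 0.0237), Nudc, a helper of Hsp90, by 1.27 (adjusted p = 0.0242) and Bag2, an inhibitor of the ubiquitin ligase CHIP, by 1.59 (adjusted p = 0.0394). Cdc37l1, a relative of the kinase co-chaperone Cdc37, rose by 1.20 (adjusted p = 0.0494).

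Of 19 tested J proteins outside the members 1 rose and 1 fell (14.3% of all genes were called), with a median of 0.05. Dnajc6, auxilin, which uncoats clathrin vesicles with Hsc70, fell by 4.04 (adjusted p = 0.0014) and Dnajb12, anchored in the membrane of the endoplasmic reticulum, rose by 1.51 (adjusted p = 0.0252). Dnajc9, a histone chaperone, lay at -0.83 and Dnajb2 at 1.0, neither past the threshold. Of 16 other genes of mitochondrial folding and quality control, 0 rose and 0 fell in limma, and the median was -0.06. Of these 16, 2 had an unadjusted p under 0.05, as had 4251 of all 12832 genes tested. The genes of smallest p there, Grpel2, Clpx, Clpb and Dnajc30, lay at 0.87, -0.97, 0.62 and 0.65.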

How the data were processed

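Expression was measured on 4 Affymetrix arrays. The deposited values are linear intensities per probe set. Per the labels, RNA was extracted with Trizol and amplified in 2 rounds, while how probes were summarised, and whether arrays were scaled to each other, is not stated. The 64 control probe sets were left out, log2(intensity + 16) was quantile normalized, and probe sets with a mean at or under the 40th percentile were dropped. The remaining 27022 were tested with limma 3.58.1 in R 4.3.3 (empirical Bayes with an intensity trend, Benjamini-Hochberg adjustment). An exact permutation test of 2 against 2 arrays cannot give a p under 0.33. The number of arrays limits the precision. Of the probe sets, 34945 had 1 gene symbol, 932 several and 9160 none, from GEO's platform annotation, and a gene took its brightest. Intensities on every array are given for called members, for the member of smallest p where a role group had no call, and for the highest and lowest difference. Up to 4 genes of smallest p are named per further list. Other genes and probe sets were added after their values were seen. The members and lists were chosen with earlier results of these data known. The method was tested on simulated data in which all probe sets shared a single spread and no array stood apart. That test does not show how the calls hold on these arrays. Part of the genotype that all 4 samples share is not reported here.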

Additional observations from a re-analysis of the deposited data

How the results depend on the processing

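With 2 arrays a group, calls rested on which arrays were used. Leaving out each array in turn gave 0 to 4 chaperones higher and 0 to 25 lower, against 1 and 9 with all arrays. Medians then ranged from -0.58 to -0.48 for all members, -0.83 to -0.69 for the CCT ring, -1.50 to -0.47 for prefoldin, -1.03 to -0.48 for co-chaperones, 0.20 to 0.54 for inducible chaperones (0.44 with all arrays) and -0.42 to -0.16 for Hsf2. These genes changed sign on leaving out an array: Dnajb1 (-0.61 to 0.46), Dnajb4 (-0.45 to 0.57), Hspa4 (-0.26 to 0.15), Pfdn2 (-0.47 to 1.01) and Ahsa1 (-0.71 to 0.0808). As deposited, 1 was higher and 5 were lower. The medians as deposited were -0.44 for all members, -0.42 for the CCT ring and -0.67 for mitochondrial chaperones, with Dnajb1 at 0.14 and Hspa4 at 0.11. With arrays centred on their medians, 2 were higher and 1 lower. The medians were then -0.33 for all members, 0.0164 for constitutive Hsp70, -0.30 for J proteins, -0.32 for the CCT ring and -0.57 for mitochondrial chaperones. Dnajb1 then lay at 0.24, Hspa4 at 0.21, Hspa8 at 0.0164 and Cct4 at 0.00963. Without an intensity trend 1 was lower, and at an adjusted p of 0.10, 18 were. With no filter on dim probe sets 6 were lower, and Tcp1, Cct6a and Trap1 were no longer called. The inducible median was 0.24 with a pseudocount of 64, and Hsf2 lay at -0.46 with a pseudocount of 1 and -0.13 with 64. With probe sets averaged per gene the medians were -0.53 for all members, -0.84 for constitutive Hsp70 and -0.88 for the CCT ring. In that setting Dnajb1 lay at 0.39, Hspa4 at 0.28 and Dnaja3 at 0.18. The cause was not tested. No paired analysis was possible because the groups share only replicate number 2.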

Other observations

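The members had 100 probe sets in all, of which 86 passed the filter, 21 fell and 1 rose in LT-HSC. Of the 25 members with several tested probe sets, all lay below 0 for 14, all above 0 for 2 (Hspb1 and Hspa1b) and on both sides for 9. The probe set shared by Pfdn2 and Klhdc9, which was left out of the gene values, lay at -0.87 on the log2 scale, LT-HSC minus ST-HSC (limma adjusted p = 0.169), against 0.25 for the probe set of Pfdn2 alone.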
